A study of Mus musculus with 10 samples.

Results

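Transcripts of 10 genes of TGF-beta and activin signalling were followed in mesenchyme dissected from mouse trachea after chlorine inhalation. They are the ligand genes Tgfb1, Tgfb2 and Tgfb3, the receptor genes Tgfbr1 and Tgfbr2, the latency gene Ltbp1, the activin subunit genes Inhba and Inhbb, and the activin inhibitor genes Fst and Fstl3. The genes were listed by name, with earlier results of these data known. All 10 were measured, each by 1 probe set, among 22180 genes on the array. Both groups were male FVB/NJ mice aged 9 weeks. The exposed group of 5 breathed 235 ppm chlorine for 1 hr, whole body, and was sampled 4 days afterwards. The other 5 mice received no treatment. Tissue under the epithelium was cut from stained frozen sections with a laser and joined over the sections of a mouse, and each mouse gave 1 array. Precision is thus set by 5 arrays per group. The series title places the samples in developing fibrotic lesions.

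TGF-beta is secreted bound to its own propeptide and held inactive in the matrix by latent TGF-beta binding proteins until integrins, proteases or thrombospondin free it. Free ligand joins a type II receptor to a type I receptor, which phosphorylates the transcription factors SMAD2 and SMAD3. Activins are dimers of inhibin beta subunits that use their own receptors and the same SMADs, and follistatin binds and neutralises them. In airway connective tissue these ligands are known for driving fibroblasts to make matrix.

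The upstream sequences of 3 of the genes are shown because the paralogous activin subunit genes Inhba and Inhbb gave different results, and because Ltbp1 and Inhba both rose. Each is the 250 bases before the annotated start in RefSeq, build GRCm38.p6, written on the strand of the gene. Capitals mark matches, on either strand, to 4 motifs. The SMAD half-site was searched as CAGAC. The AP-1 site was searched as TGANTCA and the cAMP response element as TGACGTCA. The TATA box was searched as TATAAA. No marked stretch in them overlaps another. The Inhba window is chr13:16011601-16011850 (plus strand), the Inhbb window chr1:119422249-119422498 (minus strand) and the Ltbp1 window chr17:75005279-75005528 (plus strand, the first of 2 listed starts).
Inhba: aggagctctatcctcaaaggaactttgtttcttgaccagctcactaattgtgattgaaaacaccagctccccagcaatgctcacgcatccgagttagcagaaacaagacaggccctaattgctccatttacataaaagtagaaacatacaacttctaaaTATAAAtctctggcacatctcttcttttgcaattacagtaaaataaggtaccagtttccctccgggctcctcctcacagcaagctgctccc
Inhbb: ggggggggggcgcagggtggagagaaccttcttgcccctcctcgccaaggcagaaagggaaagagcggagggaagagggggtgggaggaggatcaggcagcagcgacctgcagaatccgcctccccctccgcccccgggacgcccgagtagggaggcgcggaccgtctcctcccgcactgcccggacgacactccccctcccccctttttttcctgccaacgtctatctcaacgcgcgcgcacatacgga
Ltbp1: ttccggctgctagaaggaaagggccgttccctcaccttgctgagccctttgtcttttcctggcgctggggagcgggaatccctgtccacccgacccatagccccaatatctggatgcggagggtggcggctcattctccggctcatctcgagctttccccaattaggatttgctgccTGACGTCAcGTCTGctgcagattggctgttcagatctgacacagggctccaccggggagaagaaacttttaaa

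In the table of promoters 8 of the 10 genes had an entry, all but Tgfb3 and Fst, with 10 windows in all. The Inhba window held 1 TATAAA, beginning 91 bases before the start, and none of the other motifs. The Inhbb window held none of the 4 motifs, and its GC content was 68%, against 43.2% for Inhba. The first Ltbp1 window held TGACGTCA beginning 73 bases and a SMAD half-site on the opposite strand beginning 64 bases before the start. Among all 32851 windows of the same length, 42.2% held the SMAD half-site, 6.75% TGANTCA, 1.55% TGACGTCA and 12.4% the TATA box. TGANTCA was in none of the 10 windows. The SMAD half-site was also in windows of Tgfb2, Tgfbr1, Tgfbr2 and Fstl3, and the TATA box in those of Tgfb2 and Fstl3. None of these genes passed the test described below. A match here describes letters in a window and no measured binding.

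Among the 10 genes, the transcripts of Inhba and Fst changed most. Inhba rose 2.54-fold, Fst 3.37-fold and Ltbp1 1.55-fold in exposed mice, while the other 7 genes did not pass the test. A gene was called at a Benjamini-Hochberg adjusted p under 0.05 in limma, a linear model fitted to all genes at once. By that rule 3 of the 10 genes were called higher and 0 lower, against 10.8% of all genes called, 5.85% higher and 4.97% lower. For 4 of the 10, all higher in exposed mice, no exposed value overlapped an unexposed one, against 11.0% of all genes in either direction and 5.89% higher. The median log2 change of the 10 was 0.48, and that of all genes tested was -0.0035. Without exposed mouse 1 the count of called genes among the 10 was 5, with Tgfb1 and Tgfbr2 added. Without exposed mice 1 and 3 together it was 4, with Tgfbr2 added. Calls over all 22180 genes also rose in these fits, to 2839 and 2748, against 2400 with all mice. In bulk tissue, a change in how many cells make a transcript and a change in the amount per cell cannot be told apart.

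**Figure D1:**
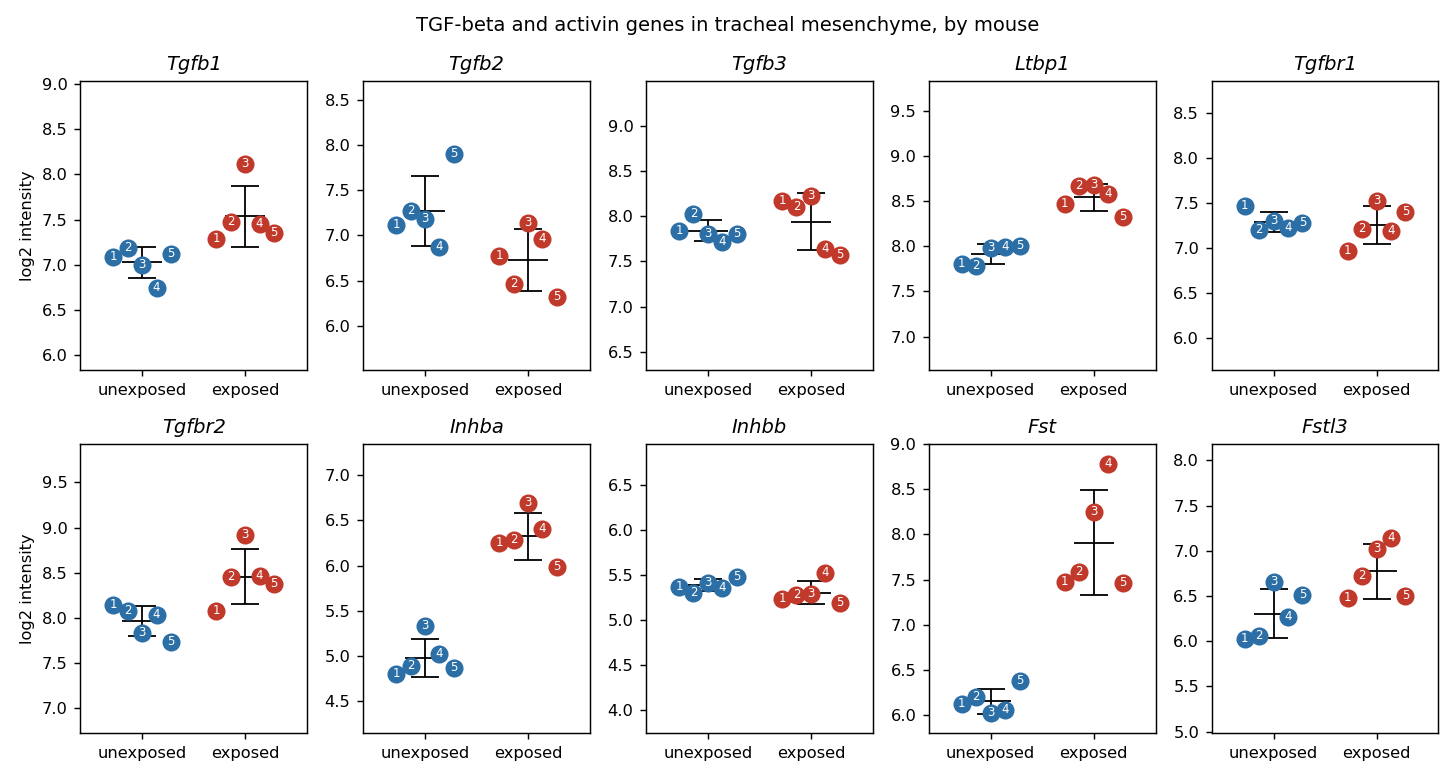
Log2 intensity of each gene (vertical axis, the same span of log2 units in every panel) in 5 unexposed mice (blue) and 5 exposed mice (red), with the mouse number in each point and bars for the mean and SD. For Tgfb1, Ltbp1, Inhba and Fst every exposed mouse lay above every unexposed mouse.

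The TGF-beta ligands differed in direction without passing the test. Tgfb1, the isoform most often tied to fibrosis, read 7.29, 7.47, 8.12, 7.45 and 7.36 (log2 intensity) in exposed mice 1 to 5 and 7.09, 7.18, 7.0, 6.75 and 7.12 in unexposed mice 1 to 5. All exposed values were above all unexposed ones, and exposed mouse 3 stood highest. The mean was 7.54 ± 0.33 against 7.03 ± 0.17 (SD, n = 5 each), a log2 change of 0.51 (SE 0.16, 95% interval 0.17 to 0.85, limma adjusted p = 0.0615). Without exposed mouse 3 the change was 0.36 (limma adjusted p = 0.0555), and the adjusted p ranged from 0.0362 to 0.139 over 19 alternative fits, of which 5 called the gene.

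Tgfb2, an isoform with roles in development and in epithelium, leaned the other way. Its values were 6.77, 6.46, 7.14, 6.96 and 6.31 in exposed mice 1 to 5 and 7.12, 7.27, 7.18, 6.88 and 7.90 in unexposed mice 1 to 5. The groups overlapped, with 3 exposed mice below all unexposed ones, and the change was -0.54 (SE 0.20, 95% interval -0.99 to -0.09, limma adjusted p = 0.125). Tgfb3, the third isoform, had a mean of 7.94 ± 0.31 in exposed and 7.84 ± 0.12 in unexposed mice (SD, n = 5 each). Its change of 0.10 (95% interval -0.21 to 0.42, limma adjusted p = 0.732) turned to -0.07 without exposed mice 1 and 3. The exposed mice split, with mice 1, 2 and 3 between 8.11 and 8.22, above all unexposed mice, and mice 4 and 5 at 7.64 and 7.57, below all of them.

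Ltbp1, which tethers latent TGF-beta to matrix fibres, was the only one of the TGF-beta branch genes listed here to be called. It read 8.47, 8.67, 8.68, 8.58 and 8.32 in exposed mice 1 to 5 and 7.81, 7.78, 7.98, 7.99 and 8.00 in unexposed mice 1 to 5. The groups were well apart, and the ranges within them were 0.36 and 0.23. The log2 change was 0.63 (SE 0.10, limma adjusted p = 0.00199), and the gene was called in all 19 alternative fits (adjusted p 0.000464 to 0.015).

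Of the receptors, Tgfbr2, which encodes the ligand-binding type II receptor, read 8.07, 8.46, 8.92, 8.46 and 8.38 in exposed mice 1 to 5 and 8.14, 8.08, 7.84, 8.03 and 7.74 in unexposed mice 1 to 5. Exposed mouse 1 fell among the unexposed mice and the other 4 lay above them. The change was 0.49 (SE 0.15, limma adjusted p = 0.0551), or 0.59 without exposed mouse 1 (limma adjusted p = 0.0171), with 0.0171 to 0.122 over the 19 alternative fits. Tgfbr1, the kinase partner that signals to SMADs, had means of 7.26 ± 0.21 and 7.29 ± 0.11 (SD, n = 5 each) and a change of -0.03 (95% interval -0.28 to 0.22, limma adjusted p = 0.907).

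Inhba, whose product forms activin A, read 6.25, 6.28, 6.69, 6.40 and 5.99 in exposed mice 1 to 5. In unexposed mice 1 to 5 it read 4.80, 4.88, 5.33, 5.02 and 4.86. The lowest exposed mouse was above the highest unexposed mouse, and exposed mouse 3 was again highest. The mean went from 4.98 ± 0.21 to 6.32 ± 0.26 (SD, n = 5 each), a log2 change of 1.34 (SE 0.14, 95% interval 1.03 to 1.66, limma adjusted p = 0.000192). The unexposed mean lay below the array medians of 5.10 to 5.18, and since no background level was known the size of its fold is uncertain. Inhbb, the activin B subunit, stayed between 5.19 and 5.52 in all 10 mice, with a change of -0.08 (95% interval -0.28 to 0.11, limma adjusted p = 0.638). These values lay near the array medians too, so whether Inhbb was detected above background is not known.

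Fst, the gene of follistatin, read 7.48, 7.58, 8.25, 8.78 and 7.46 in exposed mice 1 to 5 and 6.12, 6.20, 6.02, 6.06 and 6.38 in unexposed mice 1 to 5. The unexposed mice lay within 0.35 of each other and the exposed mice within 1.32, with mice 3 and 4 highest. The log2 change was 1.75 (SE 0.24, 95% interval 1.24 to 2.27, limma adjusted p = 0.000782), and 1.54 without exposed mouse 4. Fstl3, a follistatin-like inhibitor of activins, read 6.48, 6.72, 7.02, 7.14 and 6.5 in exposed mice 1 to 5 and 6.03, 6.06, 6.66, 6.27 and 6.52 in unexposed mice 1 to 5. Exposed mice 2, 3 and 4 were above all unexposed mice and the other 2 were not, and the change was 0.47 (SE 0.17, limma adjusted p = 0.109).

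**Figure D2:**
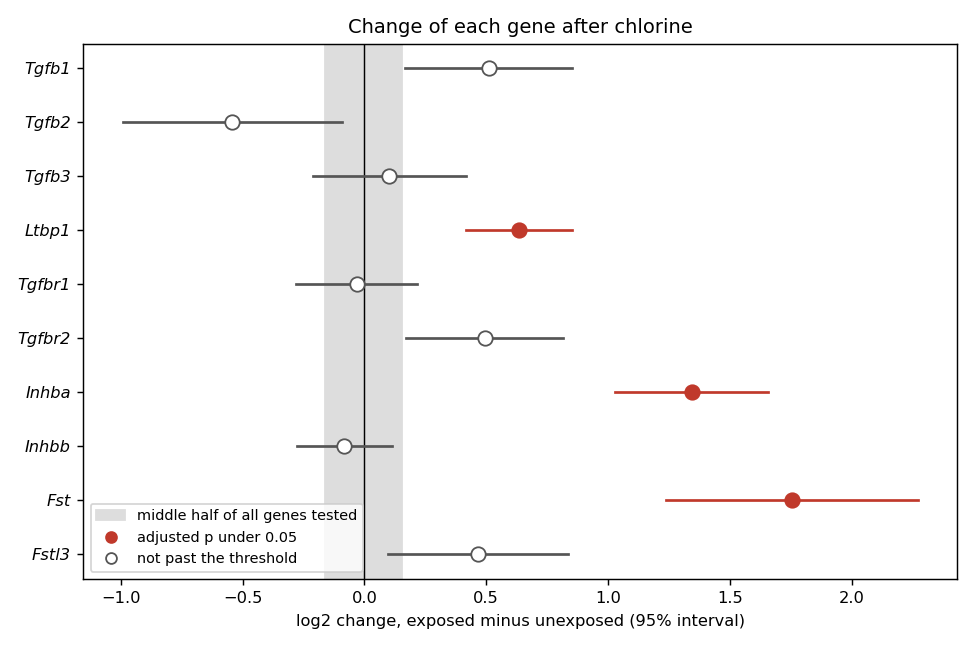
Log2 change of each gene, exposed minus unexposed (horizontal axis), with its 95% interval. Red points passed an adjusted p of 0.05 and open points did not, and the grey band spans the 25th to the 75th percentile of all genes tested (-0.16 to 0.16). Inhba and Fst stand farthest to the right, at 1.34 and 1.75.

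Pairs of ligand, inhibitor or receptor genes, and Inhba with its inhibitor Fst, were compared within each mouse, with a two-sided exact permutation test of the 10 mice and p adjusted over 5 pairs. The activin subunit genes differed in change, though Inhbb lay near the array medians in all mice and Inhba in unexposed mice. Inhba minus Inhbb was -0.62 to -0.08 in unexposed and 0.80 to 1.4 in exposed mice, a difference of 1.43 log2 units (95% interval 1.10 to 1.74, adjusted p = 0.0132). The inhibitors differed as well, since the change of Fst exceeded that of Fstl3 by 1.29 (95% interval 0.87 to 1.78, adjusted p = 0.0132). For the receptors, Tgfbr1 minus Tgfbr2 was -0.88 to -0.46 in unexposed and -1.39 to -0.98 in exposed mice, a difference of -0.52 (95% interval -0.78 to -0.27, adjusted p = 0.0132). Each of these had an unadjusted p of 0.00794, the smallest that 5 against 5 can give.

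The other pairs did not pass. Between Inhba and Fst, the subunit and its inhibitor, the difference of changes was -0.41 (95% interval -1.06 to 0.08, exact permutation adjusted p = 0.159). Without exposed mouse 4 the difference between them was -0.21 (exact permutation adjusted p = 0.317). Tgfb1 minus Tgfb3 changed by 0.41 (95% interval -0.01 to 0.74, exact permutation adjusted p = 0.0694), with 4 of 5 exposed mice above all unexposed ones. Without exposed mouse 1 the Tgfb1 and Tgfb3 difference was 0.53 (exact permutation adjusted p = 0.0198), with 0.0198 to 0.156 over its alternatives.

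**Figure D3:**
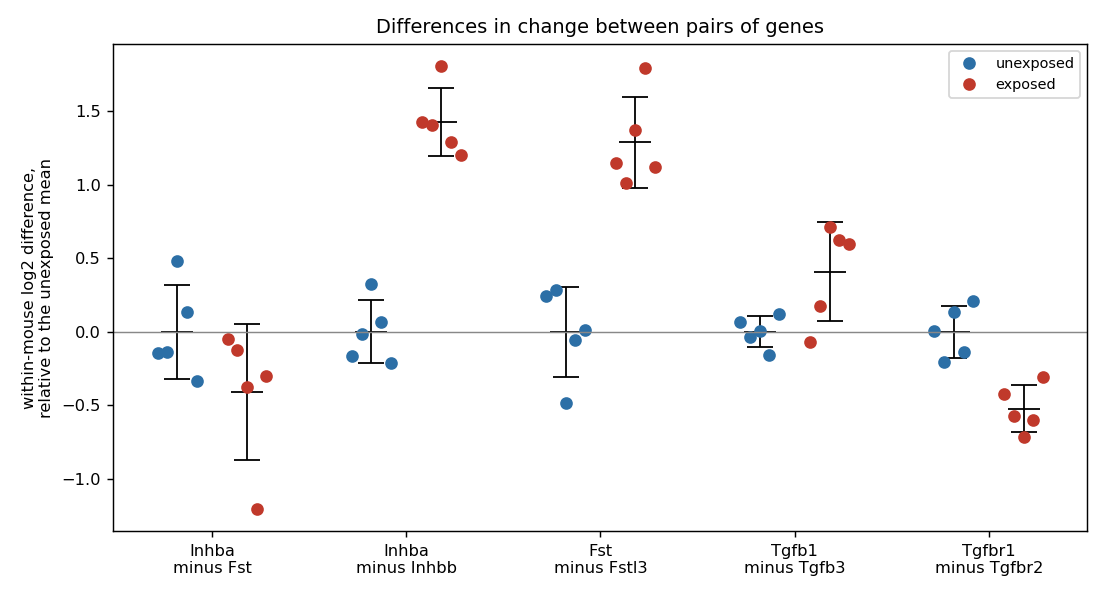
Within-mouse log2 difference between the genes of each pair, relative to the unexposed mean (vertical axis), in unexposed (blue) and exposed (red) mice, with mean and SD. The groups are apart for Inhba minus Inhbb, Fst minus Fstl3 and Tgfbr1 minus Tgfbr2 and overlap for the other 2 pairs.

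Across the exposed mice, mouse 3 had the highest value of 7 genes (the 3 ligands, both receptors, Ltbp1 and Inhba) and mouse 4 that of the other 3 (Inhbb, Fst and Fstl3). The lowest values were those of mouse 5 for 6 genes and of mouse 1 for 4. No unexposed mouse held the highest value of more than 4 genes.

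Marker lists of cell types were read in the same arrays. Fibroblast genes were present in every array, and 3 of 8 rose, or 1 of 8 without exposed mouse 4, unexposed mouse 1 or unexposed mouse 5 (1 to 4 with any 1 mouse left out). Their mean was 9.74 to 10.01 in unexposed mice and 9.95 to 10.47 in exposed mice. Macrophage genes, of which 5 of 8 rose, averaged 7.80 to 8.73 against 6.99 to 7.52. Of 7 neutrophil genes 3 rose (2 to 5 with 1 mouse left out), with means of 4.72 to 6.14 against 3.92 to 4.27. These unexposed means lay below the array medians of 5.10 to 5.18, and no background level was known. Among 4 platelet genes only Pf4 was called, with a change of 1.38, and the list means were 5.89 to 6.65 against 5.57 to 6.0. The other platelet genes did not pass, with changes of 0.36 for Itga2b, 0.09 for Gp9 and -0.195 for Treml1.

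Epithelial genes were also present, although the tissue was labelled subepithelial. Of 6 general epithelial genes 0 were called and 1 had an unadjusted p under 0.05, where 5408 of all 22180 genes did. The mean of the 6 was 8.68 to 9.14 in unexposed mice and 8.27 to 9.26 in exposed mice. Of 6 basal and squamous genes 5 rose, with means of 7.90 to 9.65 against 5.72 to 6.41. Of 7 secretory genes 1 was called lower, but 6 had an unadjusted p under 0.05 and every exposed value below every unexposed one, with a median change of -2.48. Without exposed mouse 3, 5 of the 7 secretory genes were called lower. Of 7 ciliated genes 4 fell (6 without exposed mouse 1).

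Exposed mouse 3, which had the highest value of 7 of the 10 genes, stood apart in its epithelial genes. Its secretory mean was 5.32, against 9.64 to 11.55 in the other exposed mice and 11.84 to 12.06 in unexposed mice. Its general epithelial mean of 8.27 compared with 8.93 to 9.26 in the other exposed mice, and its basal and squamous mean of 7.90 with 8.87 to 9.65. The same mouse had the highest mean of the fibroblast, macrophage, neutrophil, endothelial, platelet, smooth muscle and cartilage lists among exposed mice. Without it Inhba, Fst and Ltbp1 were still the genes called.

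Exposed mouse 4, highest for Fst, Fstl3 and Inhbb, had a T cell mean of 5.90, against 4.34 to 4.64 in the other exposed mice. Of 6 T cell genes 1 fell, or 3 without that mouse. The T cell means of the other exposed mice lay below the array medians of 5.10 to 5.18. Of 8 cartilage genes 2 fell, with 5 called without exposed mouse 3, 1 when exposed mouse 2, 4 or 5 was omitted, likewise for unexposed mouse 2, 3 or 5, and 0 with the mouse number as a replicate block. Of 7 endothelial genes 1 rose, or 3 without exposed mouse 1, 2 without unexposed mouse 3 and 0 without any 1 of the other mice. Of 8 smooth muscle genes 0 passed (0 at an unadjusted p under 0.05). The part of any cell type in the changes of the 10 genes was not tested.

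A list of genes that hold or free latent TGF-beta was chosen, like the others, with earlier results of these data known. Of 17 measured, 8 rose, 1 fell and 8 did not pass, with a median log2 change of 0.42. Over all genes 10.8% were called, 5.85% higher and 4.97% lower. Plat, the tissue plasminogen activator, rose 3.36-fold, from 7.16 ± 0.20 to 8.91 ± 0.28 (SD, n = 5 each; limma adjusted p = 5.45e-05). Mmp14, a membrane metalloproteinase, rose 2.86-fold, from 8.28 ± 0.18 to 9.79 ± 0.22 (SD, n = 5 each; limma adjusted p = 5.45e-05). Ltbp4, another latent TGF-beta binding protein, fell by 0.69 on the log2 scale (SE 0.11, limma adjusted p = 0.00178), and its exposed values of 7.42 to 7.92 lay below the unexposed values of 8.22 to 8.41. Ltbp1 and Ltbp4 thus moved in opposite directions, while Ltbp2 changed by 0.64 (limma adjusted p = 0.306) and Ltbp3 by 0.35 (limma adjusted p = 0.184). Named after their values were seen, Lrrc32, which holds latent TGF-beta at the cell surface, rose by 1.44, Itgb8, a subunit of a TGF-beta activating integrin, by 1.00, and Thbs1, a secreted activator, by 1.48. Itgb1, another integrin gene of the list, rose by 0.42 (limma adjusted p = 0.0133). The remaining integrin genes of the list did not pass. Itgav, which encodes the alpha partner of Itgb8, changed by 0.05 (limma adjusted p = 0.792). The changes were 0.06 for Itgb5 (limma adjusted p = 0.809) and 0.21 for Itgb6 (limma adjusted p = 0.562).

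Further receptors and ligands of the pathway mostly did not pass. Of 10 other receptors and co-receptors 1 rose and 0 fell (median change 0.03). It was Eng, an endothelial co-receptor, with a change of 0.86 (SE 0.23, limma adjusted p = 0.0313), whose call was lost without exposed mouse 4 or unexposed mouse 1, 2, 3 or 5 (highest adjusted p 0.0778). The endothelial marker list above had 1 of its 7 genes called. On that list 4 had an unadjusted p under 0.05, all of them higher, where 5408 of all 22180 genes did in either direction. The median change of the list was 0.43. Of 11 other activin-branch ligands and inhibitors 1 rose and 1 fell (median 0.06). Inha, the alpha subunit that turns activin subunits into inhibins, fell by 0.66 (SE 0.12, limma adjusted p = 0.00582), and its exposed values of 5.67 to 6.35 lay below the unexposed values of 6.55 to 6.82. Fstl1, a secreted follistatin-related glycoprotein, rose by 0.77 (SE 0.18, limma adjusted p = 0.0197), and its call was lost without unexposed mouse 1 or 4 (adjusted p 0.0533 and 0.0518).

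Inside the cell, 0 of 16 SMAD genes and regulators were called by limma (median change -0.04). Of the 16, 8 had an unadjusted p under 0.05, 2 higher and 6 lower, where 5408 of all 22180 genes did in either direction. The smallest p on this list were those of Trim33, a SMAD4 regulator, at -0.39 (limma adjusted p = 0.0522) and Smad7, the inhibitory SMAD that TGF-beta itself induces, at -0.49 (limma adjusted p = 0.0537). Smad7 read 6.73, 6.18, 6.76, 6.18 and 6.20 in exposed mice 1 to 5 and 6.70 to 7.03 in unexposed mice, so that exposed mice 1 and 3 overlapped the unexposed ones. It was called in 9 of 19 alternative fits (adjusted p 0.0029 to 0.125), and Trim33 in 7 (adjusted p 0.0257 to 0.117). The count of called genes on this list was 0 higher and 3 lower after a further quantile normalization, and also 3 lower without exposed mouse 1. It was 3 lower too with genes above the 25th percentile, with the trend and robust settings and with array weights. With genes above the median it was 4 lower, without exposed mice 1 and 3 it was 2, and with the mouse number as a replicate block 1. Median centring and the brightest probe set left it at 0.

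Of 9 matrix proteins that bind TGF-beta, 1 rose and 1 fell (median 0.19). Emilin1, an elastic fibre glycoprotein that limits processing of the TGF-beta precursor, rose by 0.71 (SE 0.19, limma adjusted p = 0.0335), and Fmod, the proteoglycan fibromodulin, fell by 1.81 (SE 0.43, limma adjusted p = 0.0206). The call of Emilin1 was lost without exposed mouse 2 or 4 or any 1 unexposed mouse (highest adjusted p 0.0778), and that of Fmod when exposed mouse 4, unexposed mouse 2 or unexposed mouse 5 was left out (highest adjusted p 0.0545). Of 16 measured genes known as TGF-beta targets 4 rose, 0 fell and 12 did not pass (median 0.43), and 3 to 5 rose and 0 to 2 fell with 1 mouse left out. This list shares genes with the marker lists, so their counts are not independent. Col1a1, called here, is also a fibroblast marker, and Acta2 a smooth muscle marker. Comp, also a cartilage marker, had the lowest change of the list, -1.42 (limma adjusted p = 0.0775). Cthrc1, a secreted product of activated fibroblasts, rose 4.79-fold, from 5.62 ± 0.23 to 7.88 ± 0.42 (SD, n = 5 each; limma adjusted p = 5.45e-05). Its unexposed values of 5.25 to 5.87 lay little above the array medians of 5.10 to 5.18, so the size of its fold is uncertain. Col3a1, a fibrillar collagen gene, rose 2.05-fold (limma adjusted p = 0.00295). Ccn2, a widely used target, changed by 0.11 (limma adjusted p = 0.776) and Acta2, the smooth muscle actin gene, by 0.09 (limma adjusted p = 0.825), both named after their values were seen.

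**Figure D4:**
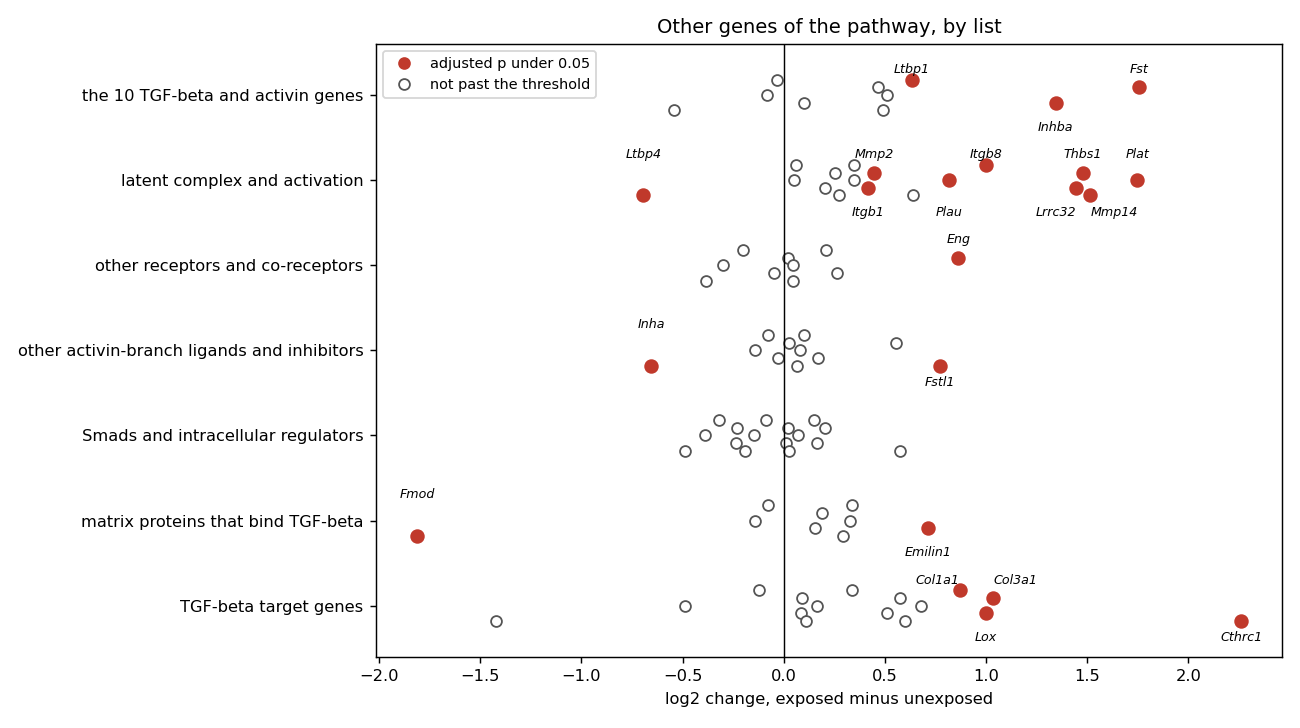
Log2 change, exposed minus unexposed (horizontal axis), of every measured gene on each pathway list (rows), where red points with names passed an adjusted p of 0.05 and open points did not. Of the genes of latency and activation 8 lie to the right and Ltbp4 to the left, and no SMAD gene or regulator is red.

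The genes most alike in pattern were found by the root mean square difference of log2 values, relative to the unexposed mean, over the 10 mice. For Inhba they were Siglec1 (0.14), Ripk3 (0.14) and Osmr (0.14). For Ltbp1 they were S100a10 (0.10), Mfap5 (0.12) and Pim1 (0.12), and for Fst Mia2 (0.29), Plat (0.31) and Kng2 (0.33).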

How the data were processed

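The deposited values are log2 intensities per probe set. The submitters' processing notes name RMA (robust multi-array average) and Partek 6.6, without settings. That the log is to base 2 was read from the range of the values. Of 41345 probe sets, 23521 carried 1 gene symbol in the platform annotation, and their mean per symbol gave 22180 genes. No background limit was at hand. Exposed and unexposed arrays entered a two-sided limma fit (3.58.1, R 4.3.3) with no covariate, with Benjamini-Hochberg adjustment over all genes. The fit and the exact permutation test were tested on simulated data. The mouse numbers shared by the groups were not used as a block: deviations of same-numbered mice correlated at -0.0488 to 0.125, and only 2 of the 5 number pairs were over 0.1. The 10 genes, the 6 other pathway lists and the 12 marker lists were chosen with earlier results of these data known. From each pathway list up to 2 rises and 2 falls were named by size of change, or the 2 smallest p where none was called, and 3 genes most alike for each called gene. Alternatives were a further quantile normalization, median centring, the brightest probe set per gene, 2 filters on dim genes, other variance settings, array weights, the block, a stricter threshold and mice left out. Listed genes not analysed here include Fbn1, Gdf15, Loxl2, Lck, Gp1ba, Gp1bb, Krt5 and Ccdc39. Python 3.11.15 drew the figures with matplotlib 3.10.9.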

Additional observations from a re-analysis of the deposited data

Results flagged for a closer look

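Among 54 groups of 5 values examined (the 10 genes, the other named genes and the 5 pair differences), 2 held a mouse far from the rest of its group, where chance gives about 5%. Tgfb1 in exposed mouse 3 was 8.12, with 7.29 to 7.47 in the other exposed mice. Inhba minus Fst in exposed mouse 4 was -2.38, with -1.55 to -1.22 in the others.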

How the results depend on the processing

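Inhba, Fst and Ltbp1 were called in all 19 alternative fits and at an adjusted p under 0.01. The count of called genes among the 10 was 5 with genes above the 25th percentile alone, with genes above the median (where Inhbb was not tested), with the trend and robust settings and with array weights, and 3 to 5 with 1 mouse left out. Calls over all genes rose too under those settings, to 2761 of 16635, 2559 of 11090, 2650 and 2756 of 22180. Over all genes 1054 were called at an adjusted p under 0.01, against 2400 at 0.05, and 1669 to 2839 with 1 mouse left out. Tgfbr1 ranged from -0.0984 to 0.0398 with 1 mouse left out, and Tgfb3 was -0.0675 without exposed mice 1 and 3; the cause was not tested. The difference for Tgfb1 minus Tgfb3 was 0.46 without exposed mice 1 and 3 and passed the test, and ranged from 0.33 to 0.53 with 1 mouse left out. With the mouse number as a replicate block, the same 3 of the 10 genes were called and 1880 of all genes, and 1 of 5 exposed mice correlated best with its own number. A sign-flip test with that replicate block cannot go under 0.0625 with 5 pairs, so the differences of 1.43 (Inhba minus Inhbb), 1.29 (Fst minus Fstl3) and -0.52 (Tgfbr1 minus Tgfbr2) did not pass there (adjusted p = 0.104 by the exact sign-flip test). Of the fits for the 10 genes, 175 kept direction and side of the threshold, 11 newly passed and 3 turned sign. For the 12 other named genes 195 kept both, 17 lost the call and 16 newly passed. Precision is limited by 5 mice per group and by the lack of a measure of signal over background.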
